A study of Homo sapiens with 6 samples.

Results

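The genes described here are NFE2L2, which encodes the transcription factor NRF2, its adaptor KEAP1, and 8 genes that NRF2 is known to activate: NQO1, HMOX1, GCLC, GCLM, TXNRD1, SRXN1, SLC7A11 and OSGIN1. They were chosen by name, as the rows of the deposited count table whose Ensembl identifiers map to these symbols, without use of their measured values. All 10 were found among the 60664 genes of the table. The cells were of the U-2 OS line, a human osteosarcoma line labelled as polyploid. They were transfected with siRNA at 30 nM, either control siRNA (siCTRL) or siRNA against SFPQ (siSFPQ). SFPQ encodes an RNA- and DNA-binding protein of nuclear paraspeckles. Each condition had 3 libraries, described in the study's methods as biological replicates, which gives 6 libraries of polyadenylated RNA from 1 cell line. Both conditions share the transfection, and siCTRL is the reference for every comparison. The comparison asks how the NRF2 pathway differed between SFPQ-depleted and control cells.

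In unstressed cells KEAP1 holds NRF2 and hands it to a CUL3 ubiquitin ligase, so that NRF2 is made and destroyed continuously. Oxidants and electrophiles modify cysteines of KEAP1, NRF2 then escapes destruction, pairs with a small MAF protein and binds antioxidant response elements in its target genes. The targets supply cystine and glutathione, reduce thioredoxin and quinones and break down heme, and the pathway is often active in tumour cells. NRF2 is controlled mainly as a protein, and only RNA was measured here.

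The counts summed to between 46142855 and 47119203 in siCTRL and to between 43469321 and 45543610 in siSFPQ. A gene with 0 counts could still have been present at the level of 3 counts, or 0.0637 to 0.069 CPM (counts scaled to the same library total in every sample), a limit that covers counting error only. The targeted gene SFPQ (ENSG00000116560, chr1:35176378-35193446) had 22338, 23139 and 21753 counts in siCTRL replicates 1, 2 and 3, against 3140, 3863 and 3151 in siSFPQ. Every siSFPQ library was far below every siCTRL library, with a log2 fold change of -2.73 ± 0.050 (SE; edgeR, adjusted p = 6.34e-30). Normalized counts, used from here on, are counts divided by the effective library size and scaled back to the geometric mean library. Values called counts without that word are as deposited. RUNX2, a transcription factor of the osteoblast lineage, had 2541 to 2872 counts, and the mesenchymal gene COL1A1 had 101230 to 140758. The later osteoblast genes SP7, IBSP and BGLAP did not exceed 6 counts in any library. The 6 osteoblast lineage markers together summed to 3549 to 3697 normalized counts in siCTRL and 3184 to 3313 in siSFPQ. Of the 4 that were tested, 1 rose, 1 fell and 2 were not called, with log2 fold changes from -1.33 to 3.65. The marker that rose did so by 3.65 on the log2 scale, a larger change than the fall. The marker that fell was SPP1, which encodes osteopontin, by 1.33 on the log2 scale (edgeR, adjusted p = 1.08e-15).

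Among the 10 genes, 3 rose and 5 fell upon SFPQ knock-down, and 2 did not pass the test. NFE2L2 and KEAP1 rose slightly, by a log2 fold change of 0.27 and 0.12. Among the targets, SLC7A11 fell by 50.02% and NQO1 fell by 38.4%, HMOX1, GCLM and TXNRD1 fell by 22.6%, 18.0% and 14.7%, and OSGIN1 rose 1.61-fold. GCLC and the barely detected SRXN1 were not called. A call is an adjusted p under 0.05 in the quasi-likelihood test of edgeR, with Benjamini-Hochberg adjustment across 29022 genes. These had 10 or more counts over the libraries, a filter that all 10 members passed. By the same rule 22.4% of all tested genes rose and 22.1% fell. Among the 15641 tested genes with a mean of at least 1 CPM, 30.1% rose and 34.5% fell. Among the 10218 with a mean of at least 10 CPM, 31.4% rose and 38.8% fell. The same 9 of the 10 members reached both levels, so calls in both directions were common at the members' levels. No member passed the study's additional limit of a log2 fold change of 1.5 in either direction, which 10.3% of all tested genes passed. The normalized counts of the groups did not overlap for 9 of the 10 members, against 52.3% of all tested genes. That share was not computed for genes at the members' levels, where calls were more common. The median log2 fold change was -0.26 over the members and 0.02 over all tested genes. These are bulk RNA samples, so fewer cells expressing a gene and less RNA per cell cannot be told apart.

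**Figure D1:**
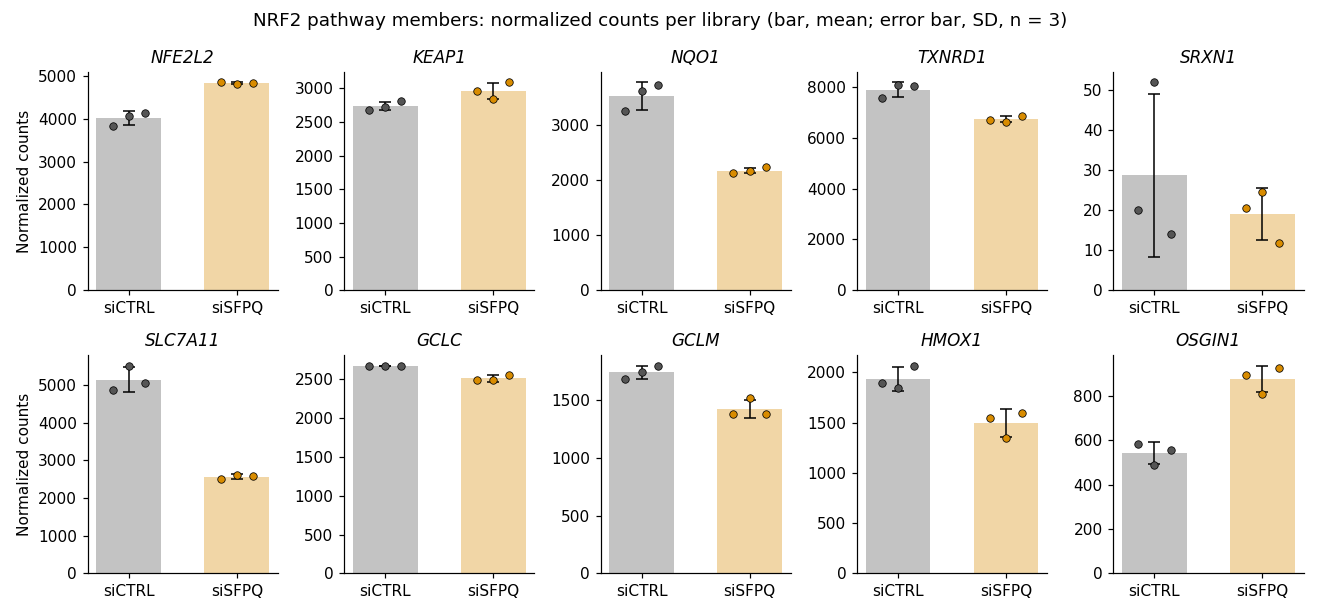
Normalized counts (y axis, each panel on its own linear scale from 0) of the 10 genes in the 3 siCTRL and 3 siSFPQ libraries; points are libraries, bars are means and error bars are SD (n = 3). The groups overlapped in the SRXN1 panel, where siCTRL replicate 2 reached 52.0 and the other siCTRL libraries stayed at or below 20.0, and in no other panel.

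NRF2 recognises the antioxidant response element, whose core is TGACNNNGC. This core was searched on both strands in the RefSeq promoter windows of GRCh38.p14, which run from 250 bases before to 50 bases after each annotated gene start. The windows below are shown because they hold every match found in a member's promoter. Each is written 5′ to 3′ on the gene's strand with the core in capitals, and a core on the opposite strand reads GCNNNGTCA.
GCLM: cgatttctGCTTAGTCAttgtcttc
TXNRD1 first start, upstream match: acgggctaTGACTTCGCtgttgtca
TXNRD1 first start, downstream match: gtccttcgGCTCCGTCAgttcccac
TXNRD1 second start: ggatttctGCTTTGTCAttctgact
KEAP1 upstream match: ttttattgTGACACGGCgggcgccc
KEAP1 downstream match: ccggctctGCTTAGTCAtggtgacc
The GCLM window lies at chr1:93909448-93909472 on the minus strand and its core begins 34 bases before the RefSeq gene start. That start differs from the start of the GENCODE span given for GCLM below. The TXNRD1 windows lie on the plus strand at chr12:104215672-104215696, chr12:104215763-104215787 and chr12:104286922-104286946, with cores that begin 99, 8 and 102 bases before the start they belong to. The KEAP1 windows lie on the minus strand at chr19:10502809-10502833 and chr19:10502786-10502810, with cores that begin 54 and 31 bases before 1 of its 2 annotated starts. The table held promoters of 8 members, and HMOX1 and SLC7A11 had no entry. A core was present in 4 of the 11 promoters of these 8 genes (36.4%), which belong to 3 genes, and in 4687 of all 35116 promoters (13.3%). The other 5 genes, NFE2L2, NQO1, GCLC, SRXN1 and OSGIN1, had no match in this window. Of the 3 genes with a match, GCLM and TXNRD1 were lower and KEAP1 was higher in siSFPQ. A match is a description of letters and was not tested for binding.

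NFE2L2 (ENSG00000116044, chr2:177218667-177392756, minus strand) encodes NRF2 itself. Its normalized counts were 3823, 4072 and 4142 in siCTRL replicates 1, 2 and 3 and 4844, 4804 and 4836 in siSFPQ. The siSFPQ libraries lay close together and all were above the highest siCTRL library. The mean rose from 4012 ± 168 to 4828 ± 21.5 (SD, n = 3), a log2 fold change of 0.27 ± 0.041 (SE; edgeR, adjusted p = 1.36e-06). Its size was ordinary for these data, since 50.3% of the tested genes with at least 1 CPM had a larger absolute log2 fold change. Of the annotated exon bases of NFE2L2, 3509 (23.4%) are shared with HNRNPA3 on the opposite strand. HNRNPA3 encodes an RNA-binding protein and had 20066 to 24136 counts, with a log2 fold change of -0.20 (edgeR, adjusted p = 3.27e-05), the direction opposite to that of NFE2L2. On the same strand, the lncRNA ENSG00000213963 shares 2037 exon bases (13.6%) with NFE2L2 and had 18 to 46 counts. Its log2 fold change was -0.89 (edgeR, adjusted p = 0.0189). The strand setting of the counting is not given in the sources used here, and the part of these overlaps in the NFE2L2 value was not tested.

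KEAP1 (ENSG00000079999, chr19:10486125-10503558, minus strand) encodes the cysteine-rich sensor that presents NRF2 for ubiquitination. It had 2683, 2726 and 2807 normalized counts in siCTRL and 2959, 2848 and 3092 in siSFPQ. The groups did not overlap, but the highest siCTRL and the lowest siSFPQ library lay close together. The log2 fold change was 0.12 ± 0.044 (SE), a rise of 8.31% that passed the threshold narrowly (edgeR, adjusted p = 0.0328). The call was lost without siCTRL replicate 1 (edgeR, adjusted p = 0.0882), without siCTRL replicate 2 (0.0717), without siSFPQ replicate 3 (0.126) and with every gene of at least 1 count tested (0.0604), at log2 fold changes of 0.09 to 0.11. Among the tested genes with at least 1 CPM, 75.8% had a larger absolute change.

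The counts of NFE2L2 relative to KEAP1 within a library, a ratio in which library size cancels, were 1.42, 1.49 and 1.48 in siCTRL and 1.64, 1.69 and 1.56 in siSFPQ. All siSFPQ ratios were above all siCTRL ratios. On the log2 scale the ratio went from 0.55 ± 0.035 to 0.70 ± 0.055 (SD, n = 3), a difference of 0.15, with a two-sided exact permutation p = 0.1, the smallest that 3 against 3 libraries can give.

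**Figure D2:**
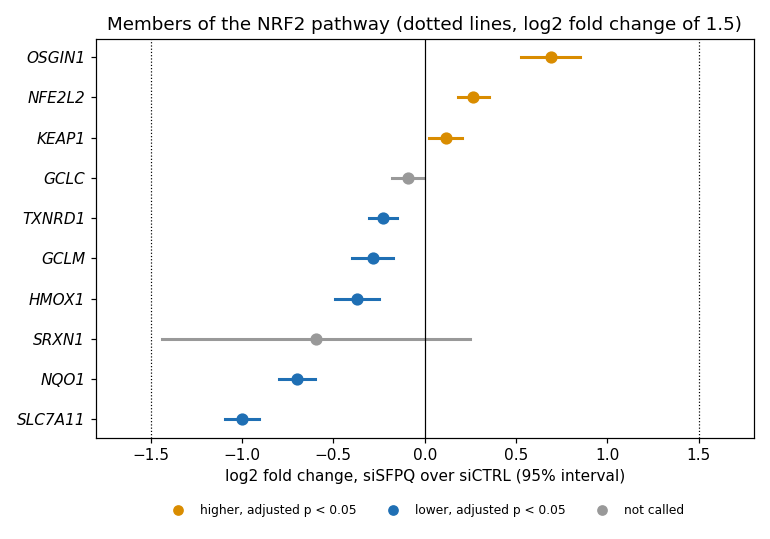
Log2 fold change (x axis, siSFPQ over siCTRL) of the 10 genes with 95% intervals from edgeR's quasi-likelihood fit of 3 against 3 libraries; dotted lines mark a log2 fold change of 1.5 in each direction. SLC7A11 at -1.001 and OSGIN1 at 0.69 are the ends of the range, and the interval of SRXN1, from -1.44 to 0.25, is the widest.

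NQO1 (ENSG00000181019, chr16:69706996-69726668, minus strand) encodes a quinone reductase and is among the most widely used readouts of NRF2 activity. Its normalized counts were 3253, 3616 and 3729 in siCTRL and 2134, 2159 and 2232 in siSFPQ. All siSFPQ libraries were well below the lowest siCTRL library and spread less than the siCTRL libraries did. The mean fell from 3533 ± 249 to 2175 ± 51.1 (SD, n = 3), a log2 fold change of -0.70 ± 0.048 (SE; edgeR, adjusted p = 2.87e-14). A larger absolute change was seen in 18.9% of the tested genes with at least 1 CPM. The lncRNA ENSG00000261602, which shares 575 exon bases with NQO1 on the opposite strand, had 0 counts in all 6 libraries.

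TXNRD1 (ENSG00000198431, chr12:104215779-104350307, plus strand) encodes cytosolic thioredoxin reductase, which uses NADPH to keep thioredoxin reduced. It had 7562.4, 8086.9 and 8052.5 normalized counts in siCTRL and 6710.1, 6632.5 and 6879.7 in siSFPQ. The siSFPQ values were lower in every library, by less than for NQO1. The mean fell by 14.7%, from 7901 ± 293 to 6741 ± 126 (SD, n = 3), at a log2 fold change of -0.23 ± 0.038 (SE; edgeR, adjusted p = 6.75e-06). The interval of the NQO1 change, -0.80 to -0.60, lay wholly below that of TXNRD1, -0.31 to -0.15, although the difference between them was not tested. TXNRD1 shares no exon bases with another annotated gene.

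SRXN1 (ENSG00000271303, chr20:646615-653200, minus strand) encodes sulfiredoxin, which repairs overoxidized peroxiredoxins. It had 20, 52 and 14 counts in siCTRL and 20, 25 and 12 in siSFPQ, a mean of 0.521 CPM and the lowest level of the 10 genes. The groups overlapped, and siCTRL replicate 2 stood above the other 5 libraries. The log2 fold change of -0.59 ± 0.414 (SE) was not called (edgeR, adjusted p = 0.263). It became 0.15 without siCTRL replicate 2 (edgeR, adjusted p = 0.819), and its interval spans both directions, so that a change was not detectable in these libraries. Of its 2528 exon bases, 2292 (90.7%) are shared with ENSG00000270299, a protein-coding gene annotated across the same strand, which had 1 to 11 counts. Reads from the shared bases could belong to either gene, and the level of SRXN1 is uncertain.

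SLC7A11 (ENSG00000151012, chr4:138164097-138242349, minus strand) encodes xCT, the light chain of the exchanger that imports cystine for glutathione synthesis. Its normalized counts were 4863.3, 5511 and 5042.5 in siCTRL and 2504.2, 2609.7 and 2590.1 in siSFPQ. Every siSFPQ library was at about the same level and far below the siCTRL libraries, of which replicate 2 was the highest. The mean fell by 50.02%, from 5139 ± 334 to 2568 ± 56.2 (SD, n = 3). The log2 fold change of -1.001 ± 0.045 (SE; edgeR, adjusted p = 3.97e-19) had the largest size among the 10 members, and 11.6% of the tested genes with at least 1 CPM changed by more. The antisense gene SLC7A11-AS1 shares 865 of its exon bases and had at most 16 counts in a library.

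SLC3A2 encodes the heavy chain that carries SLC7A11, and also other amino acid transporters, to the cell surface. It had 9129, 9328 and 9735 normalized counts in siCTRL and 10025, 9494 and 10344 in siSFPQ. The groups overlapped, and the log2 fold change of 0.08 ± 0.039 (SE) was not called (edgeR, adjusted p = 0.0855). It was called in 5 of 12 alternative analyses, in each case as a rise, including without siCTRL replicate 3 (edgeR, adjusted p = 0.0306) and without siSFPQ replicate 2 (0.0460). Within a library, the counts of SLC7A11 relative to SLC3A2 were 0.533, 0.591 and 0.518 in siCTRL and 0.250, 0.275 and 0.250 in siSFPQ. The ratio was thus lower in every siSFPQ library, by 1.08 on the log2 scale on average (-0.87 ± 0.09997 to -1.95 ± 0.079, SD, n = 3, exact permutation p = 0.1, the smallest possible).

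GCLC (ENSG00000001084, chr6:53497341-53616970, minus strand) and GCLM (ENSG00000023909, chr1:93885199-93909456, minus strand) encode the catalytic and the modifier subunit of glutamate-cysteine ligase, the rate-limiting enzyme of glutathione synthesis. GCLC had 2672, 2666 and 2670.1 normalized counts in siCTRL and 2483.5, 2482.5 and 2551.7 in siSFPQ. The siCTRL values were almost identical and all siSFPQ values lay below them, but the log2 fold change of -0.09 ± 0.043 (SE) was not called (edgeR, adjusted p = 0.0893). Its 95% interval, unadjusted for the number of genes tested, ran from -0.18 to -0.0028. GCLM had 1678, 1739 and 1797.8 normalized counts in siCTRL and 1382, 1515.7 and 1379.9 in siSFPQ. All siSFPQ libraries were below all siCTRL libraries, with siSFPQ replicate 2 nearest to them. The mean of GCLM fell from 1738 ± 59.8 to 1426 ± 77.8 (SD, n = 3), a log2 fold change of -0.29 ± 0.054 (SE; edgeR, adjusted p = 4.15e-05).

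The ratio of GCLM to GCLC counts was 0.628, 0.652 and 0.673 in siCTRL and 0.556, 0.611 and 0.541 in siSFPQ. It was lower in every siSFPQ library, with a mean log2 difference of -0.20 (-0.62 ± 0.050 to -0.81 ± 0.092, SD, n = 3). The two-sided exact permutation test gave p = 0.1, again the smallest that the design allows. Of the 3 ratios of partner genes, that of SLC7A11 to SLC3A2 differed most between the groups.

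**Figure D3:**
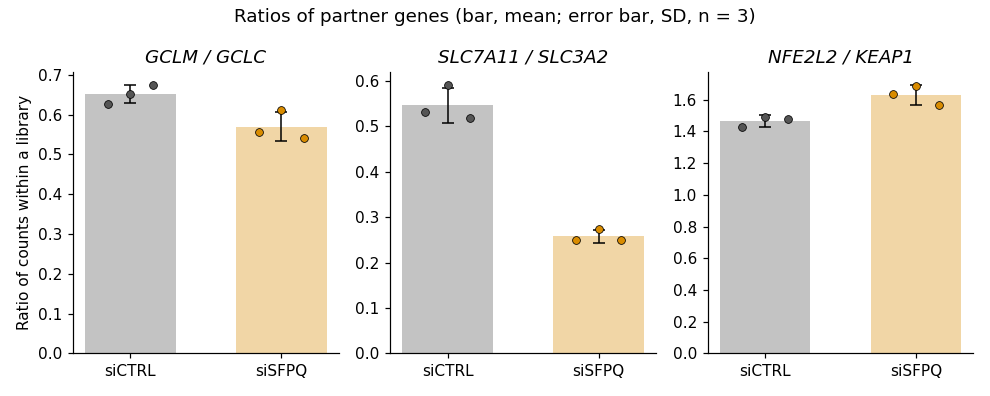
Ratio of counts within a library (y axis, linear, each panel on its own scale from 0) for GCLM over GCLC, SLC7A11 over SLC3A2 and NFE2L2 over KEAP1 in 3 siCTRL and 3 siSFPQ libraries; points are libraries, bars are means and error bars are SD (n = 3). The siSFPQ ratios are below the siCTRL ratios for GCLM to GCLC and SLC7A11 to SLC3A2 and above them for NFE2L2 to KEAP1.

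HMOX1 (ENSG00000100292, chr22:35380361-35394214, plus strand) encodes heme oxygenase 1, which opens heme to release iron and is held down by the repressor BACH1. It had 1892, 1843 and 2067.5 normalized counts in siCTRL and 1550.1, 1342.5 and 1599 in siSFPQ. The siSFPQ libraries were all lower, with replicate 2 the lowest. The mean fell from 1934 ± 118 to 1497 ± 136 (SD, n = 3), a log2 fold change of -0.37 ± 0.059 (SE; edgeR, adjusted p = 3.07e-06).

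OSGIN1 (ENSG00000140961, chr16:83931311-83966332, plus strand) encodes a growth inhibitor induced by oxidative stress. It had 583, 487 and 557 normalized counts in siCTRL and 891, 808 and 926 in siSFPQ. Every siSFPQ library was above every siCTRL library, and OSGIN1 was the only one of the 8 NRF2 targets that rose. Its mean went from 542.5 ± 49.8 to 875 ± 60.5 (SD, n = 3), a log2 fold change of 0.69 ± 0.079 (SE; edgeR, adjusted p = 5.29e-09). MLYCD, a neighbour on the same strand that shares 457 exon bases (8.22%) with OSGIN1, had 299 to 372 counts and was not called (log2 fold change 0.04, edgeR, adjusted p = 0.784).

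Levels were compared between genes only per length, as CPM per kilobase of annotated exon. In siCTRL, NQO1 (25.99 ± 1.83, SD, n = 3) and TXNRD1 (25.7 ± 0.956) were the highest and overlapped each other. HMOX1 (18.3 ± 1.12), KEAP1 (16.8 ± 0.387) and SLC7A11 (11.6 ± 0.758) followed without overlap. GCLM (7.003 ± 0.241) and GCLC (6.77 ± 0.0079) overlapped, NFE2L2 (5.86 ± 0.245) and OSGIN1 (2.13 ± 0.196) came next, and SRXN1 (0.248 ± 0.176) was last. In siSFPQ the order of levels was TXNRD1 (21.96), KEAP1 (18.1), NQO1 (16.0), HMOX1 (14.2), NFE2L2 (7.05), GCLC (6.36), SLC7A11 (5.82), GCLM (5.74), OSGIN1 (3.44) and SRXN1 (0.164), with overlap only between SLC7A11 and GCLM. NQO1, SLC7A11 and GCLM thus each moved down by 2 places, HMOX1 moved down by 1, and TXNRD1, KEAP1, NFE2L2 and GCLC moved up. Several places depend on the length used. With canonical transcripts in place of all annotated exons, NQO1 (30.6 ± 2.16) lay below TXNRD1 (44.7 ± 1.66) in siCTRL and GCLC (15.4) lay above SLC7A11 (11.6) and GCLM (7.78), and in siSFPQ OSGIN1 (9.95) lay above GCLM (6.38) and SLC7A11 (5.82). NFE2L2 moved furthest. With the 2446 bases of its canonical transcript in place of 14975 bases of all annotated exons, its level was 35.9 ± 1.497 in siCTRL, below that of TXNRD1 (44.7), and 43.1 in siSFPQ, above that of TXNRD1 (38.2).

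The wider pathway was read from 8 lists with 124 genes, none of them a member, of which 120 were tested. Of these, 51 (42.5%) rose, 33 (27.5%) fell and 36 were not called, with a median log2 fold change of 0.06. Without the ATF4 targets, the 7 lists that concern NRF2 had 100 tested genes, of which 40 rose, 30 fell and 30 were not called. The median of these 100 was 0.03, near that of all tested genes (0.02), whereas the median of the 10 members was -0.26. No set test was made, and the shares among all tested genes with at least 1 CPM were 30.1% and 34.5%. The counts of each list given below are to be read beside these shares.

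Among 17 regulators and partners of NRF2, 8 rose, 6 fell and 3 were not called. The small MAF genes MAFF and MAFK, whose products pair with NRF2 or with BACH1, both rose. MAFF had 638, 607 and 609.6 normalized counts in siCTRL and 1201.5, 1082 and 1144 in siSFPQ, a log2 fold change of 0.89 ± 0.067 (SE; edgeR, adjusted p = 4.28e-13). MAFK rose by 0.78 ± 0.041 (edgeR, adjusted p = 3.19e-17). MAFG, the remaining small MAF gene, changed by 0.10 with an adjusted p = 0.0491 in edgeR, overlapped between the groups and lost its call in 7 of 12 alternatives, among them those without siCTRL replicate 2 or 3 and those without siSFPQ replicate 1, 2 or 3.

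The repressor genes moved in opposite directions. BACH1, which competes with NRF2 for antioxidant response elements, had 5128, 5108 and 5317 normalized counts in siCTRL and 6629.6, 6798 and 6387 in siSFPQ. All siSFPQ libraries were higher, with a log2 fold change of 0.35 ± 0.039 (SE; edgeR, adjusted p = 3.07e-09). BACH2, its relative known from lymphoid cells, fell from 557 ± 30.4 to 102 ± 25.2 (SD, n = 3), a log2 fold change of -2.45 (edgeR, adjusted p = 1.19e-17). Of the genes for the ligases that mark NRF2 for destruction, CUL3, the scaffold on which KEAP1 acts, fell by 0.48 on the log2 scale (edgeR, adjusted p = 6.4e-12). BTRC, a substrate receptor that reads NRF2 after phosphorylation by GSK3, fell from 2120 ± 103 to 447 ± 19.4 (SD, n = 3), a log2 fold change of -2.25 (edgeR, adjusted p = 6.66e-25). Among the relatives of NFE2L2, NFE2L3 rose from 78.1 ± 11.4 to 259 ± 47.2 (SD, n = 3), a log2 fold change of 1.73 (edgeR, adjusted p = 1.74e-11), and NFE2L1 changed by -0.17 (edgeR, adjusted p = 0.00019).

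**Figure D4:**
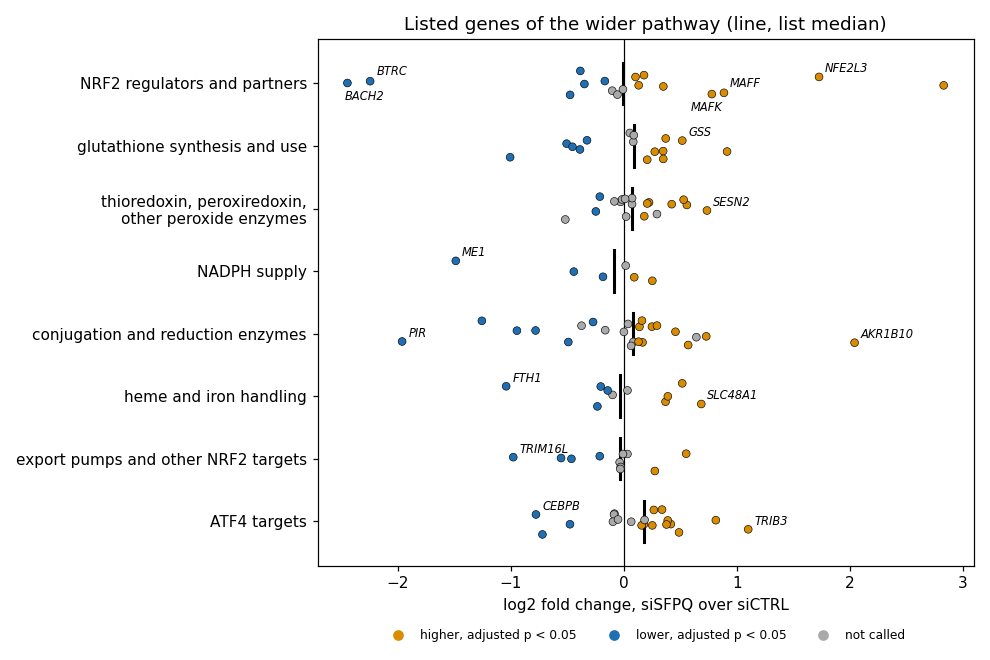
Log2 fold change (x axis, siSFPQ over siCTRL) of each tested gene of the 8 lists, with points spread vertically for display, coloured by the edgeR call at an adjusted p under 0.05, and with a black line at each list's median. List medians lie between -0.08 and 0.18, and genes range from -2.45 (BACH2) to 2.83 (NFE2, below 1 CPM).

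For glutathione synthesis and use, 7 of 15 genes rose and 5 fell, with a median log2 fold change of 0.09. GSS, which completes glutathione after the GCLC and GCLM step, rose from 4636 ± 74.8 to 6633.5 ± 278 normalized counts (SD, n = 3), a log2 fold change of 0.52 (edgeR, adjusted p = 5.82e-13). GSR, which reduces oxidized glutathione, rose by 0.27 (edgeR, adjusted p = 1.03e-06). The peroxidase genes GPX8 and GPX7 fell by 0.46 and 0.51 on the log2 scale.

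Of 18 tested genes for thioredoxin, peroxiredoxins and other peroxide enzymes, 7 rose, 2 fell and 9 were not called, with a median of 0.07. TXN, the substrate of TXNRD1, had a log2 fold change of 0.07 ± 0.042 (SE) and was not called (edgeR, adjusted p = 0.167). The sestrin gene SESN2 had 2185, 2178 and 2272 normalized counts in siCTRL and 3643, 3453 and 3949 in siSFPQ. It was higher in every siSFPQ library, with a log2 fold change of 0.74 (edgeR, adjusted p = 5.23e-15), and SESN1, TXNRD3 and the peroxiredoxin gene PRDX5 rose by 0.53, 0.56 and 0.42.

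For NADPH supply, 2 of 6 genes rose and 3 fell. ME1, the cytosolic malic enzyme and a known NRF2 target, had 1718, 1737 and 1729.6 normalized counts in siCTRL and 596, 608 and 645 in siSFPQ. The groups were far apart, with a log2 fold change of -1.49 ± 0.060 (SE; edgeR, adjusted p = 1.78e-20). PGD, an NADPH-producing enzyme of the pentose phosphate pathway, rose by 0.25 on the log2 scale (edgeR, adjusted p = 5.09e-07), and TKT, the transketolase of that pathway, changed by -0.18 (edgeR, adjusted p = 0.000163).

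Of 23 tested conjugation and reduction enzymes, 10 rose and 6 fell, with a median of 0.08. PIR, which encodes pirin and is a known NRF2 target, fell from 432 ± 39.3 to 110.5 ± 17.2 normalized counts (SD, n = 3), a log2 fold change of -1.96 (edgeR, adjusted p = 2.18e-15). The aldo-keto reductase genes differed in direction. AKR1B10 rose from 24.04 ± 4.0001 to 99.4 ± 20.9 (SD, n = 3; log2 fold change 2.04, edgeR, adjusted p = 1.03e-08) and AKR1C3 fell from 566 ± 20.8 to 294 ± 20.8 (log2 fold change -0.95). These genes and the glutathione transferase gene GSTM3, which changed by -0.78, belong to families of related genes. Whether reads were split among the relatives was not tested, and their values are uncertain.

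Heme and iron genes were evenly divided, with 4 of 10 higher and 4 lower. HMOX2, the constitutive heme oxygenase, rose from 1591 ± 44.6 to 2276 ± 44.6 normalized counts (SD, n = 3), a log2 fold change of 0.52 (edgeR, adjusted p = 6.77e-11), opposite in direction to HMOX1. BLVRB, a biliverdin reductase acting after heme oxygenase, rose by 0.39, and the heme transporter gene SLC48A1 rose by 0.68. FTH1, the ferritin heavy chain, had 17824, 17489.9 and 11332 normalized counts in siCTRL and 8197, 7330.2 and 7137 in siSFPQ. All siSFPQ libraries were lower, but siCTRL replicate 3 lay well below the other siCTRL libraries, and FTH1 has many processed copies that could share its reads (log2 fold change -1.04, edgeR, adjusted p = 3.26e-12).

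Of 11 export pumps and other NRF2 targets, 2 rose and 4 fell. TRIM16L fell by 0.98 on the log2 scale (edgeR, adjusted p = 4.87e-13) and its near copy TRIM16 by 0.56, values between which reads could be split. The pump gene ABCC2 rose by 0.55 at a low level, from 73.8 to 108 normalized counts (edgeR, adjusted p = 0.00939), and the channel gene PANX2 changed by -0.46.

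SLC7A11 is also a known target of ATF4, the factor of the amino acid response. Of the 20 genes in the list of ATF4 targets, which includes ATF4 itself, 11 rose and 3 fell, with a median log2 fold change of 0.18. These are 55% and 15% of the list, beside 30.1% and 34.5% of all tested genes with at least 1 CPM. TRIB3, a pseudokinase gene, rose from 1506 ± 46.0 to 3229 ± 250 (SD, n = 3) normalized counts, a log2 fold change of 1.10 (edgeR, adjusted p = 1.47e-18), and ATF3 rose by 0.81. CEBPB and DDIT3 fell by 0.78 and 0.72. ATF4 itself overlapped between the groups at a log2 fold change of 0.06 and was not called (edgeR, adjusted p = 0.167), and it was called in 2 of 12 alternatives, those with library size alone and without siCTRL replicate 3. SLC7A11 changed in the direction of the 3 genes of this list that fell, opposite to the 11 that rose. The part of ATF4 in its change was not tested.

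Genes that mark other cell types were read beside these values. Of 5 epithelial markers, 3 rose and their summed level was 15003 to 15724 normalized counts in siCTRL and 33276 to 36429.5 in siSFPQ. KRT8 and KRT18, which were among the 3 that rose, made up most of this sum, with log2 fold changes of 1.11 and 1.36. The rise was not confined to these genes. EPCAM was not called (edgeR, adjusted p = 0.242) and KRT19 had at most 10 counts. Of 3 endothelial markers, 2 rose, at summed levels of 194 to 251 in siCTRL and 299 to 335 in siSFPQ. The 4 blood markers summed to 28.1 to 43.1 in siCTRL and to 11.8 to 22.5 in siSFPQ, and 1 of them, PTPRC, fell. Of all tested genes, 22.4% rose and 22.1% fell. The part of these marker changes in the results for the NRF2 pathway was not tested.

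The genomic span of a gene, introns included, was set beside these changes after their values had been seen. Across 12958 protein-coding genes with at least 1 CPM, the Spearman correlation of span with log2 fold change was -0.30, and across the 121 listed genes and members at that level it was -0.10, a description over genes that share the same 6 libraries. Of the 16 listed genes and members that span at least 100 kb, 5 rose and 8 fell, at a median of -0.15. Of all 2809 protein-coding genes of that span and level, 453 rose and 1794 fell, at a median of -0.35. Among the listed genes of that span, BTRC, BACH2, ME1, PIR and CUL3 were some of those that fell, and BACH1 and SESN1 of those that rose. Among the members of that span, TXNRD1 fell, NFE2L2 rose and GCLC was not called.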

How the data were processed

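RNA of U-2 OS cells was sequenced as paired-end libraries made with a stranded mRNA kit. The authors checked reads with FastQC, aligned and quantified them with STAR 2.7.9a on Ensembl GRCh38 and deposited raw counts per Ensembl gene for 6 libraries, without normalization. The submitters' processing notes also list DESeq2. The strand setting of the counting is not given in the sources used here. No step before the counts was repeated.

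Genes with at least 10 counts in total (29022) were tested in R 4.3.3 with edgeR 4.0.16 (TMM, quasi-likelihood fit and test, no covariates, Benjamini-Hochberg adjustment). Standard errors are the log2 fold change divided by the root of the test statistic, with 95% intervals from the fit's degrees of freedom. The edgeR test replaced the DESeq2 test of the study's methods, and DESeq2 1.42.0 served as an alternative. Ratios were compared by exact permutation of libraries. p-values measure the spread between libraries of 1 cell line. Libraries of a condition differed beyond counting noise, with a chi-square of 3.77 to 5.49 per degree of freedom. Names, spans and exon lengths came from GENCODE 44 on GRCh38, matched for 99.67% of identifiers, and promoters from RefSeq. SOD2, a listed gene, was not analysed here.

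Members were chosen by name and the lists were not picked for how their genes moved. Earlier results of these data were, however, known when members and lists were chosen. Named genes were SFPQ, the members, genes overlapping a member, up to 4 genes per list with the largest absolute log2 fold change among those called, at a mean of at least 1 CPM and without overlap between groups, and 11 partner genes. Of the genes this rule gives, 2 are not reported here. Cell type markers and the highest and lowest list values were added to these. The alternatives were filterByExpr or a minimum of 1 count, RLE factors or library size alone, DESeq2, the replicate number as a block, and each library left out. The scripts were tested on simulated data.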

Additional observations from a re-analysis of the deposited data

How the results depend on the processing

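The fold changes and counts of calls were recomputed under 12 alternatives, 6 of which left out a library. The 3 ratios of partner genes were recomputed under 7 (each library left out and the replicate block) and kept their direction. Promoter matches and spans were not recomputed. SLC7A11 (-1.04 to -0.94), NQO1 (-0.76 to -0.64), HMOX1 (-0.41 to -0.31), GCLM (-0.35 to -0.22), TXNRD1 (-0.26 to -0.17), NFE2L2 (0.23 to 0.33) and OSGIN1 (0.62 to 0.75) kept their direction and their call in all of them, and GCLC (-0.10 to -0.03) was called in none. The number of members that fell was 5 throughout, and 2 to 3 rose. KEAP1 was not called with every gene of at least 1 count tested (log2 fold change 0.10) or without siCTRL replicate 1 or 2 or siSFPQ replicate 3 (0.09 to 0.11), and the cause was not tested. SRXN1 turned from -0.59 to 0.15 without siCTRL replicate 2, the library with 52 counts, and ranged from -0.92 to -0.33 in the other 11. Listed genes that rose numbered 45 to 60 and those that fell 33 to 36. Library size alone moved the median of all genes from 0.02 to 0.08. With the replicate number as a replicate block, 6530 genes rose and 6424 fell, against 6514 and 6421 without it, and no member changed its call. Deviations of same-numbered libraries correlated at 0.0019, 0.0121 and 0.0153, each the highest for its number but none over 0.1, so the numbers were read as names. SRXN1 had 12 to 52 counts per library and the other members had at least 487, and whether depth or siCTRL replicate 2 sets the spread of SRXN1 was not tested.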
